A study of Mus musculus with 3 samples.

Results

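Translation initiation factor genes were described in 3 single-cell RNA libraries of mouse P14 CD8 T cells, which carry a transgenic receptor for a peptide of lymphocytic choriomeningitis virus (LCMV). The genes were those whose symbol starts with Eif and a number, without Eif2ak2, Eif2s3y and pseudogenes, which gave 54 of the 31053 genes in the deposited tables. One of them, Eif2c5, is annotated as a long non-coding RNA and has no known role in initiation. No UMI (a counted RNA molecule) of Eif2c5, Eif4e1b or Eif4ebp3 was found in any library, so 51 genes had a value. Levels are given as CPM, a gene's UMIs relative to all UMIs of the summed cells and scaled in the usual way. A count of 0 allows up to 0.0431 CPM in the lymph node library, 0.0612 CPM in the blood library and 0.0428 CPM in the memory library, at 3 counts each.

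The TdLN library was made from the lymph node that drains the tumour, and the PBMC library from the blood, of C57BL/6 wild-type mice with B16.Gp, a B16.F10 melanoma line made to express the LCMV glycoprotein. Naive P14 cells from TCF-1-GFP reporter mice had been transferred into these mice 8 days after the tumour cells, and cells were taken on day 16 after transfer. The third library held memory P14 cells of day 200 after acute LCMV infection (Memory). The sort of TdLN and PBMC cells took CD8 T cells with CD45.1 and CD44, and that of Memory cells also asked for CD127 and no KLRG1, among other markers. Neither the number of mice per library nor the tissue of the memory cells is stated, and the tumour-infiltrating cells of the study were not analysed here. With 1 library per group, no test between libraries was possible, and tissue, day, sort and preparation cannot be told apart. A cell was kept if it had 500 genes or more and no more than 10% of its counts from mitochondrial genes. This left 6265 cells of TdLN, 5652 of PBMC and 7003 of Memory, with 69537836, 48987260 and 70116366 UMIs and medians of 9674, 7085 and 9956 UMIs per cell. Pairs of libraries shared 11 to 17 cell barcodes. The 7 T cell markers, Cd3e and Cd8a among them, had counts in every library and class of cells. Cells with UMIs of at least 2 markers of B cells, myeloid cells, erythroid cells and platelets, or neutrophils numbered 1389 in TdLN, 1000 in PBMC and 830 in Memory.

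Initiation is the step at which the small ribosomal subunit is loaded with the initiator methionyl-tRNA and brought to a start codon. The eIF2 complex carries the tRNA with GTP, and eIF2B recharges eIF2 with GTP. The eIF4F complex binds the mRNA cap through eIF4E, holds the scaffold eIF4G and unwinds the leader with the helicase eIF4A, while the many-subunit eIF3 complex links the mRNA to the ribosome. T cells that leave quiescence raise protein synthesis, partly through mTORC1, which releases eIF4E from its 4E-BP inhibitors, and the eIF2 alpha kinases lower initiation under stress.

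Cells were placed in 3 classes by markers that hold no initiation factor gene. Cycling cells had UMIs of at least 3 of 16 cell division genes such as Mki67 and Top2a, effector cells were not cycling and had UMIs of at least 3 of 8 genes such as Gzma and Cx3cr1, and the remaining cells are called other cells. TdLN held 386 cycling, 46 effector and 5833 other cells, PBMC 59, 2734 and 2859, and Memory 18, 701 and 6284. Leaving out cells with markers of other lineages, as counted above, kept 211 of 386 cycling and 4628 of 5833 other cells of TdLN. In PBMC 37 of 59 and 2343 of 2859 were kept, and in Memory 11 of 18 and 5582 of 6284. The summed effector markers stood at 5399 CPM in PBMC effector cells, at 1920 CPM in TdLN effector cells and at 659 CPM in Memory effector cells, so the rule picked cells of unlike strength in the 3 libraries. Effector cells of TdLN also held 1515 CPM of the 9 myeloid markers, against 312 CPM in TdLN other cells.

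The eIF4A helicase family holds Eif4a2 (chromosome 16, 23107444 to 23114136 in GENCODE), the initiation factor gene with the smallest adjusted p between classes. For that reason the promoters of Eif4a2, Eif4a1 (chromosome 11, 69666936 to 69672423) and Eif4a3 (chromosome 11, 119288363 to 119300089) are shown. The lines give RefSeq sequence of GRCm38.p6 from 150 bases before to 30 bases after the transcript start, 5′ to 3′ on the gene's own strand, with the ETS core CGGAAG (or CTTCCG, its other strand) in capitals.
Eif4a2, chr16:23107318-23107497, plus strand: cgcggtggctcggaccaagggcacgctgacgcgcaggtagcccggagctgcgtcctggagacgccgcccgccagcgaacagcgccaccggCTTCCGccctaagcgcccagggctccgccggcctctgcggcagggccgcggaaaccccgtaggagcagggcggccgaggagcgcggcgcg
Eif4a1, chr11:69672394-69672573, minus strand: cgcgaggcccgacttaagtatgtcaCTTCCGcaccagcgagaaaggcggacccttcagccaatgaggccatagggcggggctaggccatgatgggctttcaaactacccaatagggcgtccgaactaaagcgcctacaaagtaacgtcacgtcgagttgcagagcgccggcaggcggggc
Eif4a3, chr11:119300014-119300193, minus strand: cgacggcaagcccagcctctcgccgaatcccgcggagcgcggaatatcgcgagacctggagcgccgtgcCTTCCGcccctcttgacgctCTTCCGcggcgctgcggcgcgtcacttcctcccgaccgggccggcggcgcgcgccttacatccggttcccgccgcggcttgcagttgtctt

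A promoter window of 300 bases, from 250 before to 50 after the start, was found for 42 of the 54 genes. The ETS core, the letters bound by ETS family transcription factors, was in the windows of 23 of these 42 genes (54.8%), against 18.8% of the 27025 genes with a window. The E-box CACGTG, the letters bound by Myc with Max and by related factors, was in 10 of 42 (23.8%), against 8.09% of all genes. The 27025 genes are all those with a window, whether or not they had counts in these cells. A share among genes with counts was not computed. Both strands were searched, and the 2 motifs share no overlap by their letters. The 10 genes with an E-box were Eif1b, Eif3a, Eif3f, Eif3k, Eif4a1, Eif4e, Eif4g1, Eif4h, Eif5a and Eif5a2. Eif4a1 had both motifs in its 300-base window, and Eif4a2 and Eif4a3 had ETS cores and no E-box. A match is a description of letters and says nothing of binding in these cells.

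Summed over its cells, TdLN gave 8391 CPM to the initiation factor genes (8369 to 8412), PBMC 7386 (7362 to 7410) and Memory 6990 (6970 to 7009), where the ranges are exact Poisson 95% intervals that cover counting error only. The summed level was 1.20 times as high in TdLN as in Memory (1.196 to 1.205), and 1.06 times as high in PBMC as in Memory (1.052 to 1.061). TdLN stood 1.14 times above PBMC (1.131 to 1.141). The median gene of the whole table was also higher in TdLN than in Memory, by 0.17 on the log2 scale. Scaled by TMM, which sets the bulk of genes equal between libraries, the 3 ratios were 1.08, 1.05 and 1.03.

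Of the 54 genes, 39 reached 20 CPM in at least 1 library and 15 did not. The 3 eIF2 alpha kinase genes stayed below 20 CPM in every library. Genes that reached 20 CPM in the higher of the libraries compared entered a comparison, and ratios of 1.5-fold or more were counted. In TdLN over Memory, 4 of 39 genes were past that fold and higher (Eif2a, Eif3l, Eif4e2 and Eif5a) and none was lower, against a background of 12.7% higher and 5.23% lower among 4647 genes. The median log2 ratio of the 39 genes was 0.24. In PBMC over Memory, Eif4e2 alone of 38 genes was past the fold, against 4.47% higher and 3.63% lower among all genes. In TdLN over PBMC, 7 of 39 were higher (Eif2a, Eif2b5, Eif3b, Eif3l, Eif4a1, Eif4b and Eif5a) and none lower, against 10.4% higher and 4.17% lower. The median log2 ratio of the initiation factor genes was 0.03 in PBMC over Memory and 0.19 in TdLN over PBMC, and that of all genes 0.05 and 0.12. The comparisons share libraries, so a gene counted in several is not counted independently. With TMM scaling the counts were 1 gene in TdLN over Memory (Eif3l; background 7.91% higher and 8.39% lower), 1 in PBMC over Memory (Eif4e2; 4.28% and 3.97%) and 3 in TdLN over PBMC (Eif2a, Eif4a1 and Eif4b; 6.25% and 6.62%), none of them lower.

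**Figure D1:**
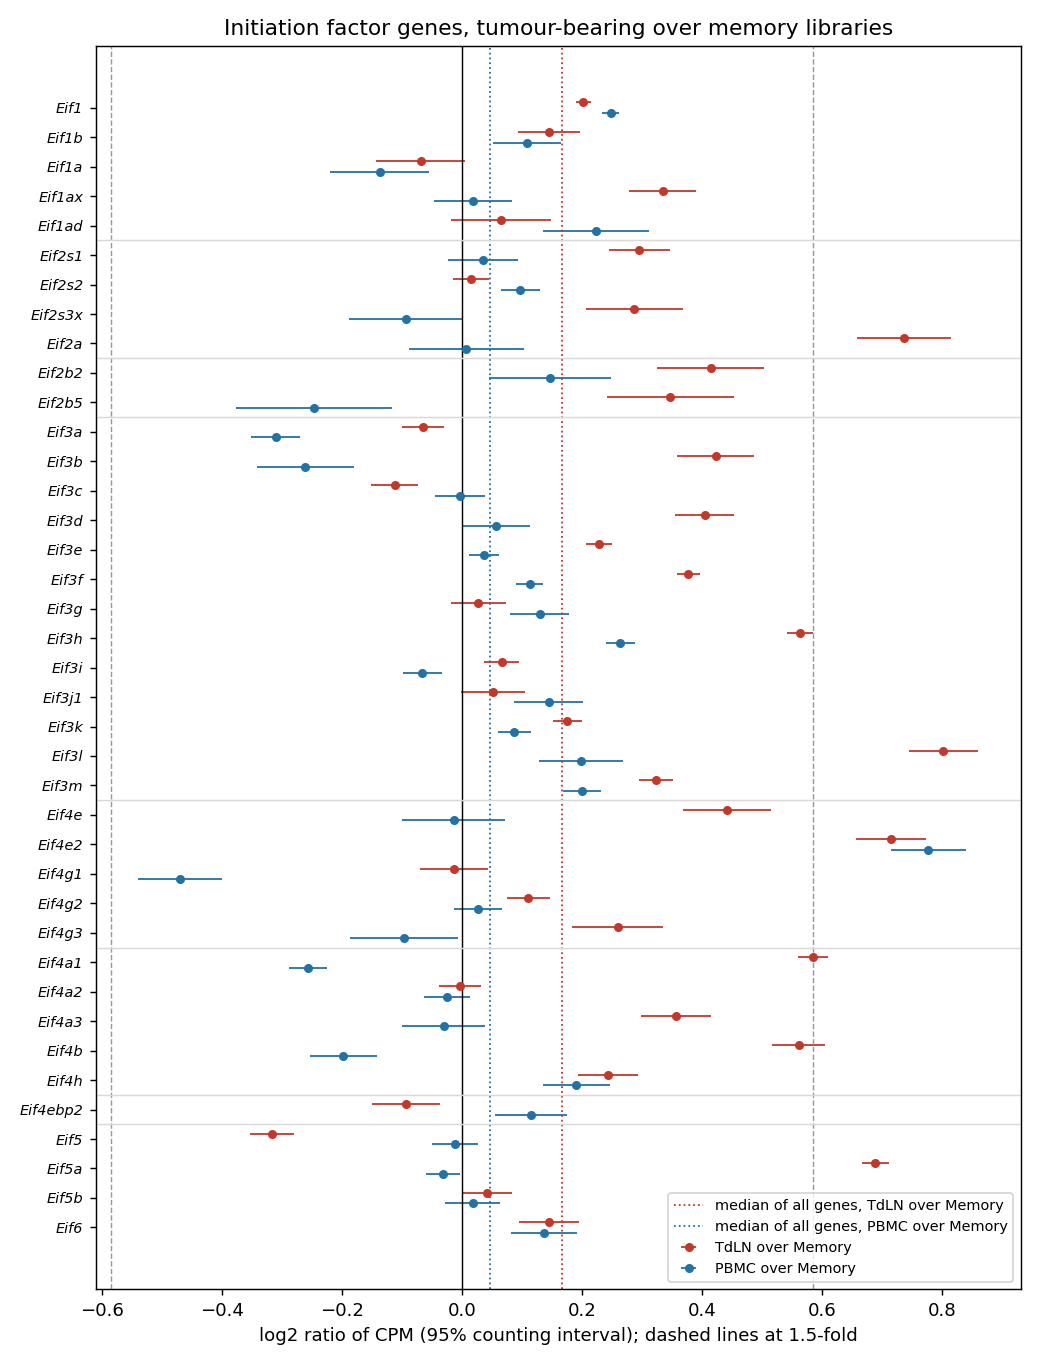
Log2 ratio of CPM for the 39 initiation factor genes with at least 20 CPM in a library, TdLN over Memory in red and PBMC over Memory in blue, grouped by role, with 95% counting intervals. Dotted lines mark the median of all genes compared (0.17 and 0.05). Eif4e2 lies right of the 1.5-fold line in both comparisons, and Eif2a, Eif3l and Eif5a in TdLN over Memory.

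Among the factors of scanning and start codon choice, Eif1 was the most abundant initiation factor gene, with 1459 CPM in TdLN, 1507 CPM in PBMC and 1269 CPM in Memory. Eif1 keeps the scanning ribosome open until a start codon is found. It is a gene with 12 annotated pseudogene copies of at least 95% identity over 300 bases, so how its reads were assigned is uncertain. Eif1ax, the X-linked gene for eIF1A, stood at 82.3 CPM in TdLN, 66.1 CPM in PBMC and 65.3 CPM in Memory. Its autosomal partner Eif1a, whose transcript is 85.7% identical, had 41.9, 39.95 and 43.9 CPM. Eif1ad, which encodes a protein with an eIF1A-like domain that acts in the maturation of the small ribosomal subunit, had 34.6, 38.7 and 33.1 CPM.

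Of the eIF2 subunits, Eif2s1 (alpha, the subunit phosphorylated under stress) had 99.6 CPM in TdLN, 83.1 CPM in PBMC and 81.1 CPM in Memory, and Eif2s2 (beta) had 255.7, 270.9 and 253.2 CPM. Eif2a, a separate factor that can deliver initiator tRNA without eIF2, had 50.8 CPM in TdLN, 30.6 CPM in PBMC and 30.5 CPM in Memory, so TdLN stood apart from both other libraries. Its ratio was 1.67 in TdLN over Memory (1.58 to 1.76) and 1.66 in TdLN over PBMC (1.56 to 1.76). Eif2s3x, the gamma subunit, lay between 30.4 and 39.6 CPM, and Eif2d, a factor of non-standard initiation, between 12.04 and 15.1 CPM. The 5 eIF2B subunit genes, which recharge eIF2, lay between 11.25 and 34.15 CPM in all libraries, and each was highest in TdLN. Eif2b5, the catalytic subunit, had 23.8 CPM in TdLN, 15.8 CPM in PBMC and 18.7 CPM in Memory. Of the eIF2 alpha kinases, Eif2ak3 (PERK, the sensor of the endoplasmic reticulum) had 4.27, 5.001 and 4.36 CPM, Eif2ak1 (the haem-regulated kinase) had 17.6, 18.8 and 17.5 CPM, and Eif2ak4 (GCN2, the sensor of amino acid shortage) had 2.905, 2.695 and 3.89 CPM.

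The 14 eIF3 subunit genes ranged from Eif3j2, at 1.45 CPM in TdLN, 2.16 CPM in PBMC and 2.17 CPM in Memory, to Eif3f, at 684.3, 569.7 and 526.9 CPM. The transcripts of Eif3j1 and Eif3j2 are 99.4% identical, so their split is uncertain. The shares of UMIs given to subunits of 1 complex thus differed widely, on a 3′ count scale that is not divided by gene length. Eif3l, a subunit that budding yeast eIF3 lacks, had 93.3 CPM in TdLN, 61.4 CPM in PBMC and 53.5 CPM in Memory. It had the highest ratio of all initiation factor genes compared in TdLN over Memory, 1.74 (1.67 to 1.82). Eif3h, at 599.8, 487.5 and 406.0 CPM, was just short of the fold in TdLN over Memory with 1.48 (1.455 to 1.4998). Eif3a, the largest subunit, was nearly level between TdLN and Memory, with 183.0 CPM in TdLN, 154.3 CPM in PBMC and 191.5 CPM in Memory.

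Among the cap-binding and scaffold genes, Eif4e, the cap-binding subunit that limits eIF4F, had 51.6 CPM in TdLN, 37.6 CPM in PBMC and 38.0 CPM in Memory. Eif4e2, a homologue that binds the cap without joining eIF4G and is known as a repressor of chosen mRNAs, had 88.6 CPM in TdLN, 92.5 CPM in PBMC and 54.0 CPM in Memory. Both libraries from tumour-bearing mice thus stood above Memory, by 1.64 (1.58 to 1.71) in TdLN and 1.71 (1.64 to 1.79) in PBMC. The scaffold Eif4g1 had 70.15 CPM in TdLN, 51.1 CPM in PBMC and 70.8 CPM in Memory. Its ratio of 0.722 in PBMC over Memory (0.688 to 0.757) was the lowest of the 38 genes compared there. Eif4g2, a scaffold without the eIF4E site that serves cap-independent initiation, had 180.2, 170.0 and 166.9 CPM. Eif4g3 lay between 34.1 and 43.7 CPM, and Eif4e3, an eIF4E homologue whose exons overlap those of Gm20696 on the same strand, between 5.75 and 7.66 CPM.

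Of the helicase genes, Eif4a1 had 471.2 CPM in TdLN, 262.9 CPM in PBMC and 314.2 CPM in Memory, while Eif4a2 was level at 191.8, 188.9 and 192.3 CPM. Eif4a1 and Eif4a2 encode near-identical helicases of eIF4F, of which Eif4a1 is the usual one and Eif4a2 has been linked to repression by microRNAs. The Eif4a1 ratio was 1.4998 in TdLN over Memory (1.47 to 1.53), just under the fold, and 1.79 in TdLN over PBMC (1.76 to 1.83). Eif4b, a cofactor of the helicase, had 145.0 CPM in TdLN, 85.7 CPM in PBMC and 98.3 CPM in Memory. Eif4a3, the helicase of the exon junction complex on spliced mRNA, had 76.6, 58.55 and 59.8 CPM. The 4E-BP gene Eif4ebp1 had 11.3 CPM in TdLN, 9.55 CPM in PBMC and 14.5 CPM in Memory, and Eif4ebp2 had 69.9, 80.8 and 74.6 CPM. Eif4enif1 (4E-T, the eIF4E shuttling protein) lay between 13.55 and 16.5 CPM.

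Of the late factors, Eif5a, whose hypusine-bearing product helps ribosomes through difficult peptide bonds, had 593.6 CPM in TdLN, 360.1 CPM in PBMC and 368.2 CPM in Memory. Its ratio was 1.61 (1.59 to 1.64) in TdLN over Memory and 1.65 (1.62 to 1.68) in TdLN over PBMC. With TMM these ratios were 1.45 and 1.4975, both under 1.5-fold. The ratios cover all cells of a library, and the part of cycling cells is not separated in them. In TdLN the 386 cycling cells held a mean of 28.2 Eif5a UMIs and the other cells 5.15. Other cells of PBMC held a mean of 3.83 and those of Memory 3.62. Eif5, which triggers GTP hydrolysis by eIF2 and shares only part of its name with Eif5a, ran the other way, with 153.7 CPM in TdLN, 190.0 CPM in PBMC and 191.6 CPM in Memory. Its ratio of 0.802 (0.782 to 0.823) was the lowest in TdLN over Memory among initiation factor genes that reached 20 CPM in TdLN or Memory. Eif5b, which joins the ribosomal subunits, had 133.9, 131.7 and 130.1 CPM, and Eif6, which keeps the large subunit from joining too early, had 95.8, 95.2 and 86.7 CPM. Eif5a2, the sparsely used partner of Eif5a, lay between 1.75 and 2.41 CPM.

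Cycling cells of all 3 libraries held a smaller share of Eif4a2 and larger shares of Eif1ax, Eif4a3, Eif1ad and Eif3l than other cells of the same library. These calls come from edgeR's quasi-likelihood test on counts summed per library and class, with the library as a block, so that the 3 libraries stand as replicates of the difference within a library. They are 3 libraries of different tissues and days, and an adjusted p is Benjamini-Hochberg over all 11563 genes tested. Of the 51 initiation factor genes tested, 4 rose and 2 fell in cycling cells at an adjusted p under 0.05, against a background of 10.8% of all genes higher and 7.76% lower. The share of initiation factor genes called was therefore no larger than that of all genes. Their median log2 fold change was 0.15, against -0.08 for all genes.

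Eif4a2 had 103.6 CPM in cycling cells of TdLN, against 207.7 in TdLN other cells. In PBMC it had 98.0 CPM in cycling cells and 184.2 in other cells, and in Memory 134.8 CPM in cycling cells and 191.9 in other cells. All 3 cycling sums lay below all 3 sums of other cells. The log2 fold change was -1.05 with a standard error of 0.19 (edgeR adjusted p = 7.96e-07), or 2.08-fold lower in cycling cells. Cycling cells held more UMIs, with a median of 25438 UMIs in TdLN, 14110 in PBMC and 15895 in Memory, against 9505, 11610 and 9934 UMIs in other cells. The mean number of Eif4a2 UMIs per cell was 2.84 in cycling and 2.08 in other cells of TdLN, 1.49 and 2.03 in PBMC, and 2.11 and 1.90 in Memory. Per cell, cycling cells were thus lower in PBMC and higher in TdLN and Memory, while the share of UMIs was lower in all 3. Cells were then limited to the middle range of the cycling cells' UMI totals. There 192 cycling and 253 other cells of TdLN had 105.7 and 187.8 CPM of Eif4a2. The edgeR log2 fold change over TdLN and PBMC was -1.13 (adjusted p = 3.34e-08). In this fit 2 of 48 initiation factor genes tested rose (Eif4a3 and Eif4e2) and 1 fell (Eif4a2). Of all genes 7.56% were higher and 3.18% lower. PBMC gave 29 cycling and 1298 other cells, and Memory, with 8 cycling cells, did not enter. In PBMC the effector markers stood at 4626 CPM in these cycling cells and 62.8 CPM in these other cells. Effector transcripts thus differed along with cycling there.

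**Figure D2:**
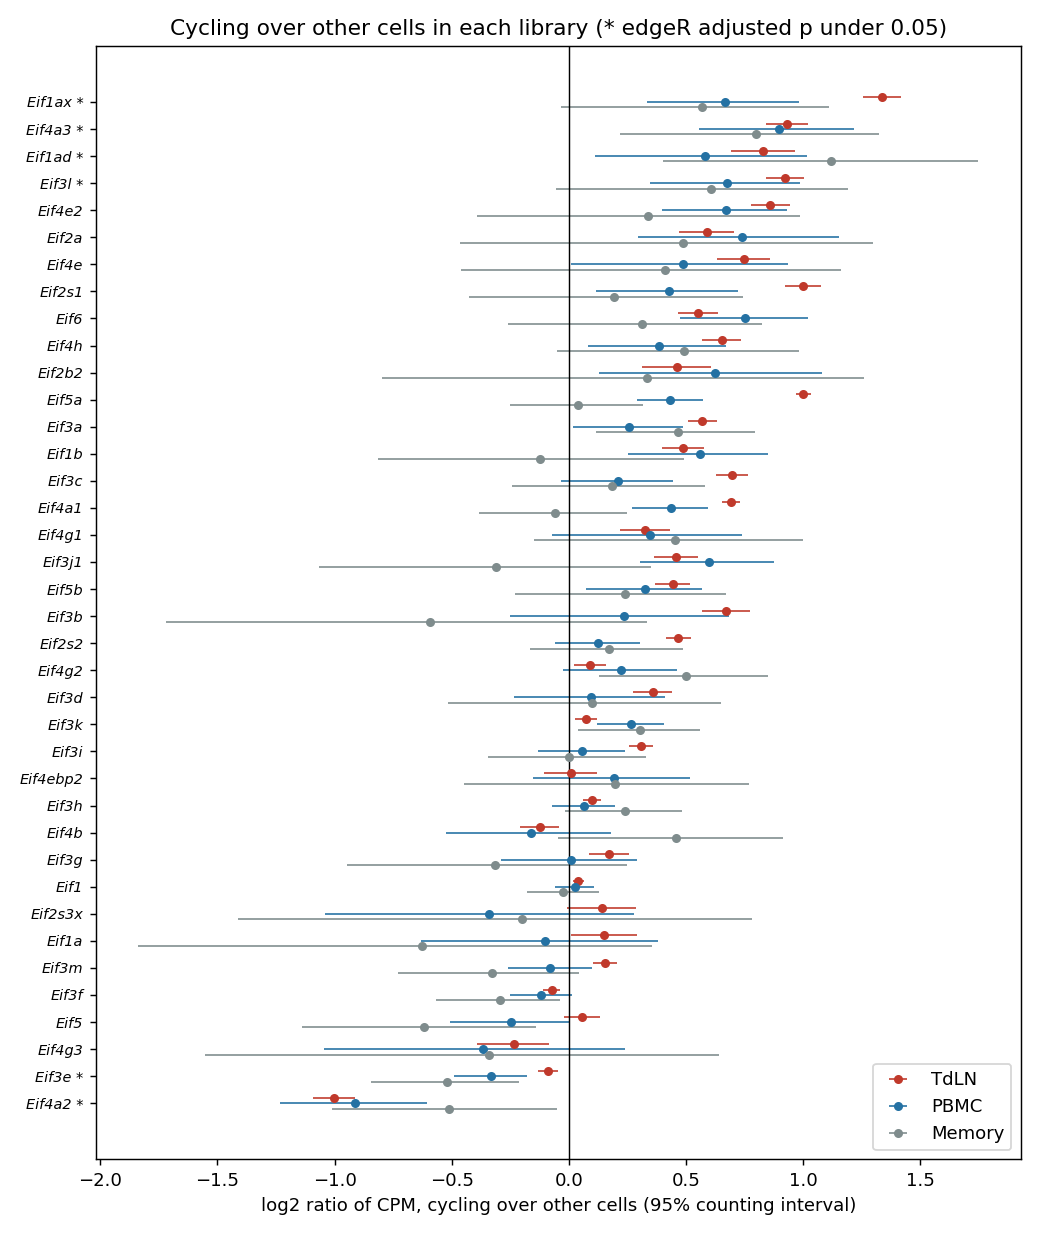
Log2 ratio of CPM in cycling over other cells within each library (TdLN red, PBMC blue, Memory grey) for initiation factor genes with at least 20 CPM in each comparison, ordered by edgeR log2 fold change, with 95% counting intervals. Stars mark an edgeR adjusted p under 0.05. Eif4a2 lies left of 0 in all 3 libraries, and Eif1ax, Eif4a3, Eif1ad and Eif3l right of 0.

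Eif4a1 did not pass in the same test, with a log2 fold change of 0.17, a standard error of 0.18 and an edgeR adjusted p of 0.58. It had 695.7 CPM in cycling cells and 430.4 in other cells of TdLN, 364.1 and 269.3 in PBMC, and 301.4 and 313.9 in Memory, so cycling cells were higher in TdLN and PBMC. In Memory, whose 18 cycling cells held 85 Eif4a1 UMIs, the ratio was 0.960 (0.767 to 1.19), and the difference between libraries was not tested. The ratio of Eif4a1 to Eif4a2 UMIs, which does not depend on scaling, was 6.71 in cycling cells of TdLN (6.30 to 7.16) and 2.07 in other cells (2.03 to 2.12). In PBMC it was 3.72 in cycling cells (2.93 to 4.76) and 1.46 in other cells (1.41 to 1.51), and in Memory 2.24 (1.51 to 3.37) and 1.64 (1.60 to 1.67). Each cycling value lay above the value of other cells, and in Memory the 2 intervals overlapped. Eif4a1 has 3 annotated pseudogene copies and Eif4a2 has 1, so how reads were assigned between each gene and its copies is uncertain.

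**Figure D3:**
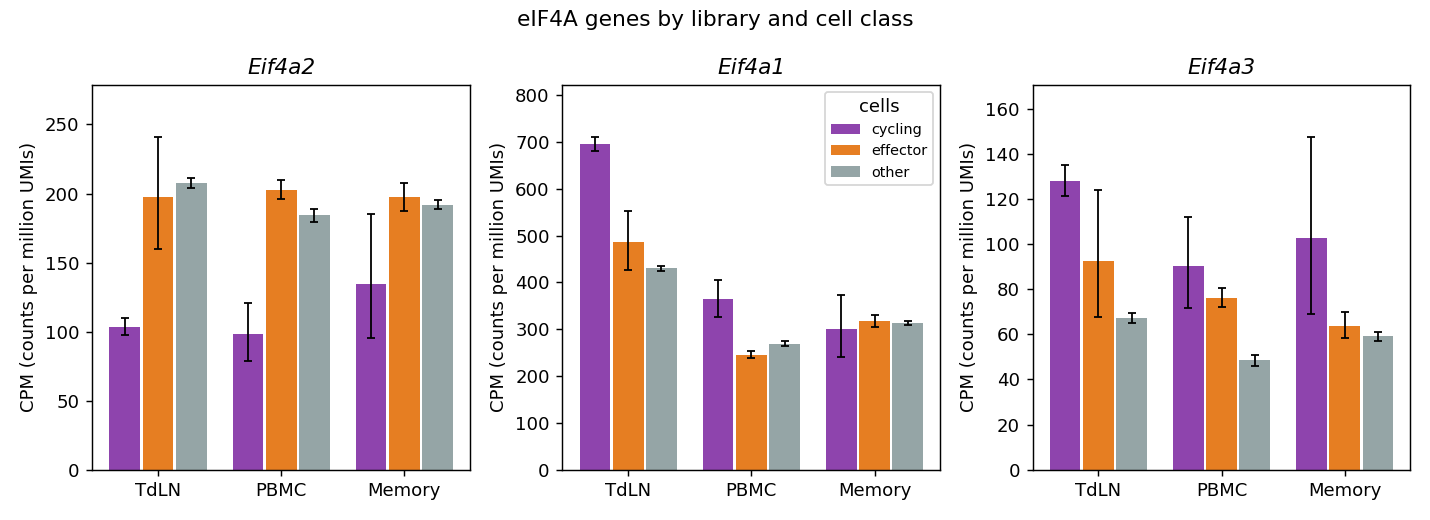
CPM of the 3 eIF4A family genes in cycling (purple), effector (orange) and other cells (grey) of each library, with exact Poisson 95% intervals. Eif4a2 is lowest in cycling cells of all 3 libraries (103.6, 98.0 and 134.8 CPM), while Eif4a3 is highest there.

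Of the genes that rose, Eif1ax had 168.1 CPM in cycling and 66.6 in other cells of TdLN, 94.6 and 59.6 in PBMC, and 95.7 and 64.5 in Memory. The log2 fold change was 0.72 with a standard error of 0.19 (edgeR adjusted p = 0.00207). Eif4a3 had 128.0 CPM in cycling and 67.1 in other cells of TdLN, 90.2 and 48.5 in PBMC, and 102.8 and 59.1 in Memory, with a log2 fold change of 0.68 (edgeR adjusted p = 0.00358). For Eif1ad the log2 fold change was 0.62 (edgeR adjusted p = 0.0166) and for Eif3l 0.56 (edgeR adjusted p = 0.0233). Eif3e, the second gene that fell, changed by -0.52 (edgeR adjusted p = 0.0286), from a small difference in TdLN, with 480.2 CPM in cycling and 510.5 in other cells, and larger ones in PBMC, with 387.5 and 488.0, and Memory, with 301.4 and 432.5. Without PBMC or without Memory the test no longer called it. Without TdLN none of the 4 higher genes was called, and without PBMC Eif4a3 and Eif3l were not. Eif3l was also not called when cells with markers of other lineages were left out, while Eif1ad, Eif1ax, Eif4a3, Eif3e and Eif4a2 were. Over 14 alternative fits Eif4a2 was called in 14, Eif1ax in 10, Eif4a3 in 9, Eif3e in 8, Eif1ad in 6 and Eif3l in 5.

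The cycling cells of PBMC also carried effector transcripts, with 3106 CPM of the 8 effector markers, against 99.2 CPM in the other cells of PBMC. In TdLN the same markers summed to 129.1 CPM in cycling and 73.9 in other cells, and in Memory to 216.3 and 160.0 CPM. Of the 59 cycling cells of PBMC, 24 met the rule for effector cells too. A further fit, chosen after seeing the data, left such cells out of all 3 libraries. In it Eif1ax, Eif4a3, Eif3e and Eif4a2 were still called, and Eif4a2 had a log2 fold change of -0.98 (edgeR adjusted p = 7.80e-06). Eif1ad, at 0.60 (edgeR adjusted p = 0.0642), and Eif3l, at 0.51 (edgeR adjusted p = 0.0863), were not.

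The TdLN library, with most cycling cells, showed wider differences. There 16 of 42 initiation factor genes passed 1.5-fold upward in cycling cells and Eif4a2 alone was lower, against a background of 26.4% higher and 7.91% lower among 4983 genes. In PBMC 8 of 40 were higher and Eif4a2 alone was lower (background 29.6% and 4.03%), and in Memory 6 of 42 were higher and 3 lower (background 29.4% and 12%). Eif5a had 1029 CPM in cycling and 514.1 in other cells of TdLN, 467.6 and 346.3 in PBMC, and 375.9 and 365.7 in Memory. Its edgeR log2 fold change of 0.30 did not pass (adjusted p = 0.27). Eif2s1 had 172.6 CPM in cycling and 86.3 in other cells of TdLN, and Eif4e had 78.4 and 46.7. Neither passed the test over the 3 libraries (edgeR adjusted p = 0.127 for Eif2s1 and 0.149 for Eif4e).

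With total counts in place of TMM, edgeR called 14 initiation factor genes higher, Eif4a1, Eif5a, Eif2s1 and Eif4e among them, and Eif4a2 lower, against 17% of all genes higher and 4.57% lower. Cells limited to the middle range of the cycling cells' UMI totals are called matched, though totals within that range were not made equal. In TdLN the 192 matched cycling cells held 4882917 UMIs and the 253 matched other cells 5442450. Their summed level was 9013 CPM in cycling and 8985 CPM in other cells, a ratio of 1.003 (0.990 to 1.016). Without that limit it was 10011 and 8095 CPM. Eif5a was then at 713.1 and 712.7 CPM, Eif4a1 at 568.1 and 530.1 CPM, and Eif4e at 62.3 and 56.4 CPM. Past 1.5-fold were then Eif1ax, at 137.2 CPM in cycling and 88.4 in other cells, Eif4a3, at 112.8 and 73.1 CPM, and Eif4a2, against 15% of all genes higher and 5.93% lower. The matched cycling cells of TdLN held 94.8 CPM of myeloid markers, against 381.1 CPM in the matched other cells, and the part of such cells in these values was not tested.

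**Figure D4:**
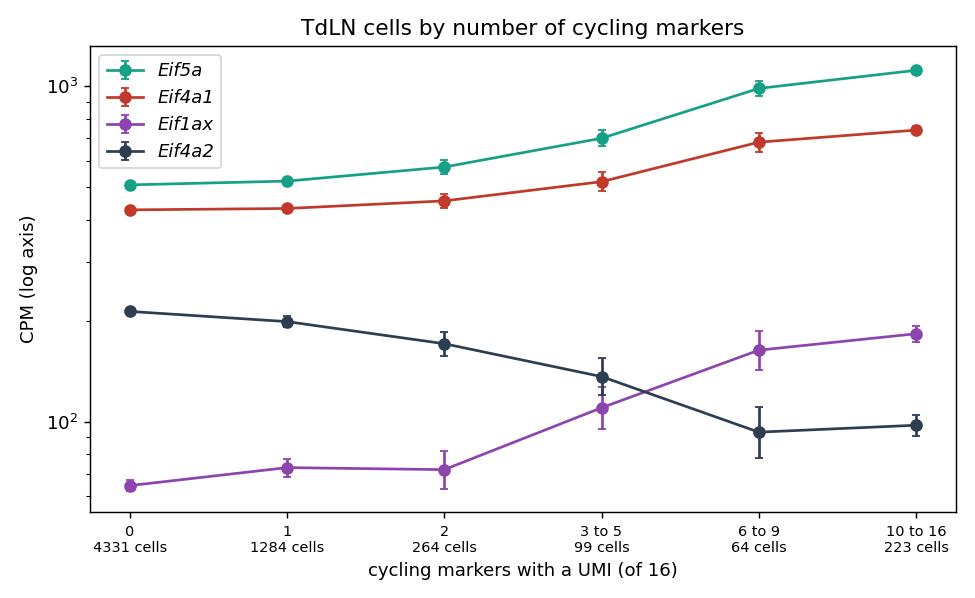
CPM (log axis) of Eif5a, Eif4a1, Eif1ax and Eif4a2 in TdLN cells grouped by how many of the 16 cycling markers had a UMI, with exact Poisson 95% intervals and the number of cells under each group. Eif4a2 goes down and the other 3 genes go up toward the cells with most markers.

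Across TdLN cells grouped by their number of cycling markers, Eif4a2 stood at 213.4 CPM in cells with 0 markers, 199.0 with 1, 170.9 with 2, 136.4 with 3 to 5, 93.1 with 6 to 9 and 97.7 with 10 to 16. Eif5a stood at 508.6, 521.9, 574.8, 700.4, 986.2 and 1117 CPM in the same groups, and Eif4a1 at 428.4, 432.5, 455.6, 519.9, 681.9 and 740.9 CPM. The median UMI total per cell went the same way, with 9355, 9890, 11068, 17153, 23916.5 and 30261 UMIs. Number of markers and depth thus cannot be told apart in these groups. Cells near the class limit were 264 with 2 markers and 46 with 3 in TdLN, 124 and 22 in PBMC, and 47 and 2 in Memory.

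Of the other genes of translation, ribosomal protein genes were lower in cycling cells. Termination and recycling genes lay near the initiation factors by median edgeR fold change. They lay above them by the ratio of summed CPM in cycling over other cells. Differences between the lists were not tested. Over all genes, 10.8% were called higher and 7.76% lower in this comparison. Of 91 cytosolic ribosomal protein genes tested, 57 fell and 1 rose, with a median log2 fold change of -0.54. The share of UMIs from ribosomal protein genes was 34.5% in cycling and 44.6% in other cells of TdLN, 35.2% and 47.8% in PBMC, and 37.8% and 43.5% in Memory. Of 9 elongation factor genes 2 fell, Eef1a1, which brings tRNA to the ribosome, by 0.49 and the eEF2 kinase gene Eef2k by 1.52 on the log2 scale (edgeR adjusted p = 0.0381 and 0.00733). None of 5 termination and recycling genes passed, and their median log2 fold change was 0.20, against 0.15 for the initiation factor genes. The summed CPM of termination and recycling genes in cycling over other cells had a ratio of 1.48 in TdLN, 1.25 in PBMC and 1.11 in Memory. That of the initiation factor genes was 1.24, 1.09 and 1.03. Of 10 cofactors of the cap, poly(A) tail and helicase, 3 fell: Larp1, which holds back ribosomal protein mRNAs, Ddx3x, a helicase, and Pdcd4, an inhibitor of eIF4A. Of 11 genes of the mTORC1 and MNK pathway only Mknk1, an eIF4E kinase gene, was called, and it fell by 0.93 on the log2 scale (edgeR adjusted p = 0.0336), a share close to that of all genes. Of 9 target genes of the integrated stress response, Asns, an asparagine synthetase, rose with a log2 fold change of 1.66 (edgeR adjusted p = 0.0107). Ppp1r15a, which recruits a phosphatase to eIF2 alpha, fell by 1.16 (edgeR adjusted p = 2.06e-06) and Ddit3, the stress transcription factor CHOP, by 0.77 (edgeR adjusted p = 0.0127) on the log2 scale.

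In effector cells no initiation factor gene passed the test over the 3 libraries. Of 51 genes, edgeR called 0 and DESeq2 0, and 5 had an unadjusted edgeR p under 0.05: Eif3e, Eif3m, Eif3h, Eif3k and Eif2a, all with negative fold changes. At that unadjusted threshold 5.4% of all 11656 genes were higher and 5.5% lower, and by adjusted p 0.137% were higher and 0.0686% lower. The log2 fold change of Eif3e was -0.46 with a standard error of 0.16 (edgeR adjusted p = 0.36).

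Within PBMC, which held most effector cells, the direction depended on the scaling. By total counts, 5 of 39 genes passed 1.5-fold upward in effector over other cells (Eif1ad, Eif1b, Eif4a3, Eif4g2 and Eif6) and none lower, against a background of 31.2% higher and 4.41% lower. The median of all genes compared was itself higher by 0.43 on the log2 scale, and that of the initiation factor genes by 0.19. The ribosomal protein genes held 30.1% of UMIs in PBMC effector cells and 47.8% in other cells. With TMM, which moves all genes by -0.40, none was higher and 5 were lower (Eif1a, Eif2a, Eif3e, Eif3i and Eif3m), against 8.26% higher and 10.9% lower. Eif4g2 had 229.3 CPM in effector and 139.2 in other cells of PBMC, and Eif3e had 358.4 and 488.0 CPM. These genes thus lay on opposite sides within the same cells, a difference that does not depend on the scaling. Eif4a2 had 202.8 CPM in effector and 184.2 in other cells, and its direction turned with the scaling, since with TMM its ratio was 0.833. Eif4a1 had 245.1 CPM in effector and 269.3 in other cells, with a TMM ratio of 0.689.

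**Figure D5:**
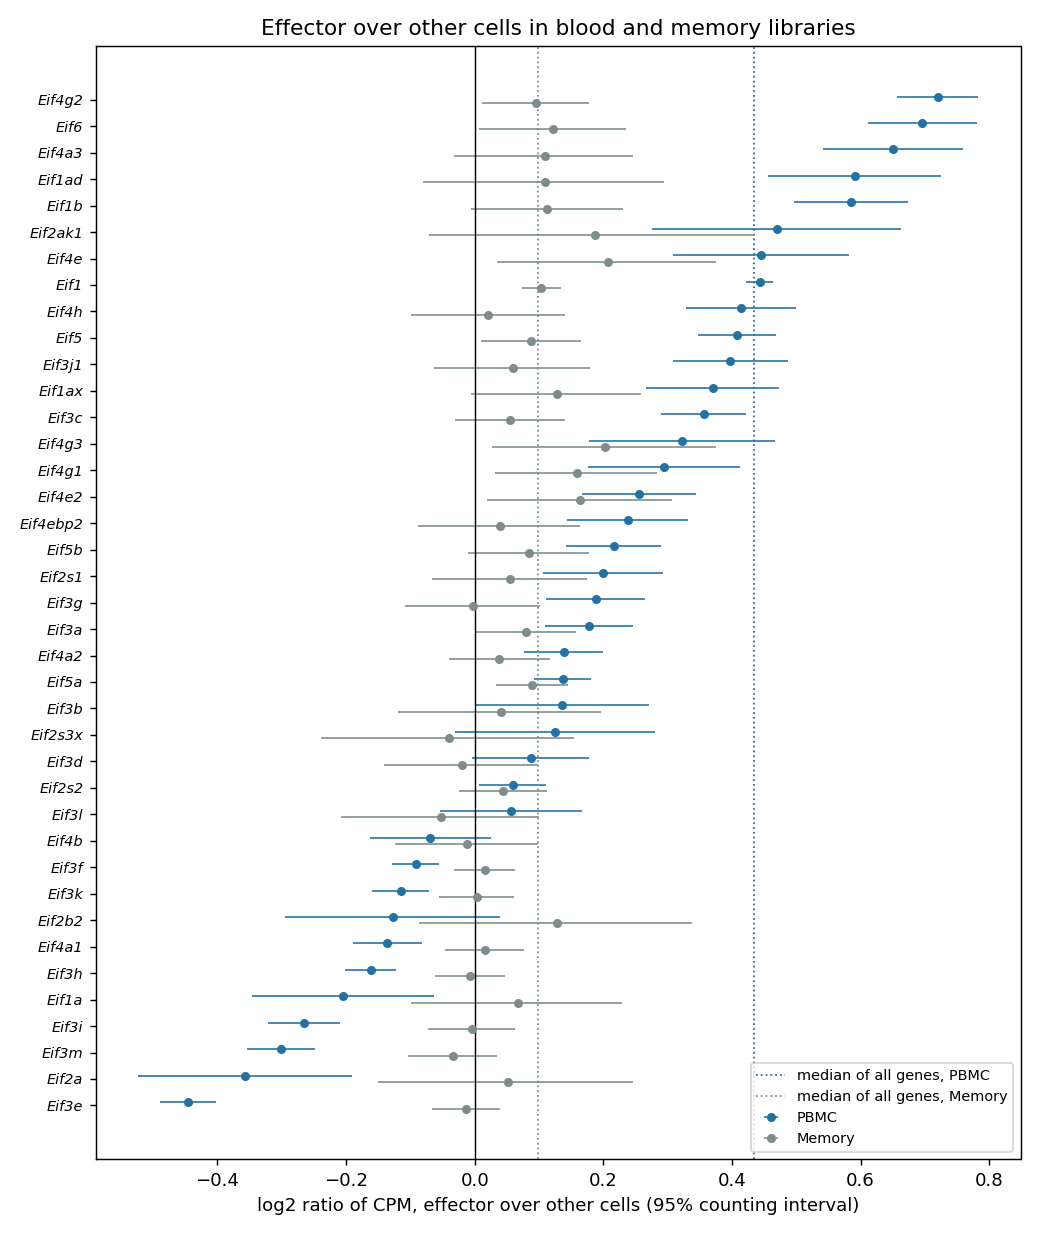
Log2 ratio of CPM in effector over other cells of PBMC (blue) and Memory (grey) for initiation factor genes with at least 20 CPM in PBMC, with 95% counting intervals. Dotted lines mark the median of all genes compared, 0.43 in PBMC and 0.10 in Memory. The PBMC values run from Eif4g2 at 0.72 to Eif3e at -0.45, while the Memory values stay near 0.

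The PBMC effector cells were shallow, with a median of 5270.5 UMIs against 11610 in other cells. With cells limited to the middle range of the effector cells' UMI totals, 1366 effector and 195 other cells had a summed initiation factor level of 8007 and 7730 CPM. Eif1a and Eif2a were then past 1.5-fold, both lower, against 9.5% of all genes higher and 3.97% lower. These 195 other cells held 408.1 CPM of effector markers and 510.1 CPM of naive T cell markers such as Ccr7. All other cells of PBMC held 99.2 and 1377 CPM of the same markers. The limit thus changed the kind of other cells along with their depth, and kind and depth cannot be told apart here. In TdLN, whose 46 effector cells carried myeloid markers, 3 of 39 genes were past 1.5-fold and higher in effector cells (Eif1ax, Eif2b5 and Eif4g3), against 22.2% of all genes higher and 3.67% lower. In Memory, where median depths were 10253 and 9934 UMIs, none of 38 genes was past 1.5-fold in effector over other cells, against 0.573% of all genes higher and 0.138% lower. Cells were also thinned to 4200 UMIs, with cells of fewer UMIs left out and all classes set again on the thinned counts. Effector cells then numbered 12 in TdLN, 2091 in PBMC and 200 in Memory, so they were not the same sets of cells. The edgeR test over the 3 libraries then called 6 genes lower (Eif2a, Eif3e, Eif3f, Eif3i, Eif3m and Eif4a1). Of all genes 7.07% were lower and 4.77% higher.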

How the data were processed

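The authors deposited raw UMI counts, not normalized, for each gene and barcode of 3′ libraries. Cell Ranger 3.1.0 and the mm10 build were used, per the submitters' processing notes. No isoform can be read from 3′ counts. Cells needed 500 genes or more and 10% mitochondrial counts or less. Doublets were not called or removed, and their part in cells of high UMI totals was not tested. Counts were summed per library and class and divided by their total (CPM). CPM has exact Poisson and ratios exact conditional binomial 95% intervals (scipy 1.17.1), for counting error only. Classes were compared with edgeR 4.0.16 (quasi-likelihood, TMM, filterByExpr, Benjamini-Hochberg, library as block), and with DESeq2 1.42.0 as an alternative. All samples carry replicate number 1, so the block is the library. On simulated counts edgeR recovered 87% of 2-fold changes for cycling (11186 genes) and 85% for effector cells (11343 genes). These counts drew all libraries from a shared profile with a common dispersion. Changes were planted only in genes of at least 20 CPM and were equal in all libraries. The simulation thus cannot tell how the test fares with libraries as unlike as these. Coordinates and pseudogene copies come from GENCODE on GRCm38, promoters from RefSeq. Named genes were the 6 highest and 6 lowest per comparison and a fixed panel, 40 in all. Further genes were named after their values were seen. The genes, lists and tests were chosen with earlier results of these data known. Alternatives changed scaling, filters, class limits and libraries.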

Additional observations from a re-analysis of the deposited data

How the results depend on the processing

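Eif4a2 was lower in cycling cells in each of the 15 edgeR and DESeq2 fits. Beside 6 initiation factor genes called in cycling cells, 15 were called with total counts only, 1 without the replicate block (Eif4a2, adjusted p = 0.00889), 2 at a limit of 2 markers, 2 with cells thinned to 4200 UMIs, 3 with matched UMI totals (added after seeing the data), and 3 to 8 with a library left out (3 without TdLN, 3 without PBMC). For effector cells 6 were called with thinned cells, beside 0. Past 1.5-fold in TdLN over Memory were 4 genes, and 1 with TMM, 7 with stricter cell limits, 2 in other cells only, 1 at 100 CPM and 0 at 2-fold. In PBMC over Memory the count was 1, and 2 without ribosomal and mitochondrial counts, 0 at 100 CPM, 2 with no minimum and 0 at 2-fold. In TdLN over PBMC it was 7, and 3 with TMM, 3 with equal weight per cell, 3 in other cells only, 3 at 100 CPM and 0 at 2-fold. In cycling cells of TdLN it was 17, and 10 at 100 CPM, 3 at 2-fold and 3 with matched totals. In PBMC effector cells it was 5, and 3 at 2 markers, 3 at 100 CPM, 8 with no minimum, 0 at 2-fold, 3 with stricter cell limits and 2 with matched totals. The summed ratio of TdLN over Memory was 1.20, and 1.08 with TMM, 1.206 without ribosomal and mitochondrial counts, 1.16 with equal weight, 1.255 with stricter limits, 1.186 without cells with other-lineage markers and 1.163 in other cells. For PBMC over Memory it was 1.057, and 1.047, 1.018, 1.083, 1.0497 and 1.024 under the first 4 of these and in other cells. For TdLN over PBMC it was 1.136, and 1.03, 1.185, 1.07, 1.196 and 1.12 under the first 5. Eif3b in cycling cells of TdLN turned to -0.0885 (log2) with matched totals. Where no value shows a cause, the cause was not tested. Values of the 18 cycling cells of Memory and 46 effector cells of TdLN rest on few cells.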
